A study of Homo sapiens with 6 samples.

Results

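The clustered replication-dependent histone genes supply most of the histone protein that packs newly made DNA, and they lie in groups on chromosomes 6 and 1. Here they were taken as every gene of the deposited table whose name starts with HIST1H, HIST2H, HIST3H or HIST4H. Names that end in P or PS, with or without a number, were left out as pseudogenes. The rule gave 62 genes of the 31999 listed, of which 5 are named as H1 genes, 13 as H2A, 20 as H2B, 12 as H3 and 12 as H4. RefSeq calls 59 of them protein coding and 3 of those named as H2B pseudogenes. No HIST4H gene was among them, and 6 pseudogenes were left out by name.

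The study compared HEL cells, an established human erythroleukemia cell line, that carried a control short hairpin RNA (shCtrl, 3 libraries) with HEL cells that carried one against TMIGD2 (shTMIGD2, 3 libraries). TMIGD2 is an immune receptor of the immunoglobulin family. Both groups were transduced cultures grown in RPMI with serum, labelled as biological replicates, and for each total RNA was enriched for poly(A) before a directional library was made. Which of the study's short hairpin RNAs against TMIGD2 these cells carried is not given in the sources used here.

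The level used throughout is the authors' mean log2 CPM (read counts scaled to a common library total) over all 6 libraries, 1 value per gene. This mean pools shCtrl and shTMIGD2, so it says nothing of the effect of the knockdown, has no spread between libraries and has no depth per library behind it. No difference in level between genes could therefore be tested, and neighbours in any order given here cannot be told apart by replicate error. TMIGD2 itself had a mean log2 CPM of 4.08. All 13 erythroid, megakaryocytic and other HEL markers were listed, between 5.52 and 11.09, among them GATA1 and ITGA2B. Of the other markers, 2 of 4 T cell genes, 2 of 3 B cell genes and 4 of 4 epithelial and fibroblast genes were listed, and 1 of each list reached 0 (CD2 at 2.95, CD79A at 2.32 and KRT18 at 3.26).

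H2A, H2B, H3 and H4 form the nucleosome core and H1 binds the linker DNA between cores. Their clustered genes are transcribed mainly in S phase, when DNA is copied. As background, most animal mRNAs end in a poly(A) tail, whereas the mRNAs of these genes normally end a few bases after a short hairpin, which is bound by SLBP, and carry no tail. When cells leave the cell cycle or differentiate, some of the genes can also give longer, polyadenylated transcripts from a signal downstream of the hairpin. Enrichment for poly(A) discards most RNA that lacks a tail, so low transcription and RNA without a tail cannot be told apart in these libraries.

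The hairpin was looked for in the reference sequence within 150 bases after the stop codon, as 6 paired bases around a loop of 4. It was found in 58 of the 59 members with a coding gene model, 22 to 67 bases after the stop codon (median 35). HIST1H2AG had none without a mismatch in the stem and had one when 1 mismatch was allowed. The 5 hairpins here show the most frequent form and the ways in which it varied, with stem and loop in capitals (build GRCh38, written 5′ to 3′ on the strand of the gene).
HIST1H1C (chr6:26055739-26055764, minus strand): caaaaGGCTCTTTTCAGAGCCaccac
HIST1H2BK (chr6:27146361-27146386, minus strand): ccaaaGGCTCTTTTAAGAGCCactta
HIST1H2BI (chr6:26273387-26273412, plus strand): ccaaaGGCTCTTCTAAGAGCCaccca
HIST1H4I (chr6:27139649-27139674, plus strand): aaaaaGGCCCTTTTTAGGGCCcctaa
HIST1H4L (chr6:27873148-27873173, minus strand): tcaaaGGCCCTTCTCAGGGCCaccca

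The stem differed between H4 and the other types. All 12 H4 genes had GGCCCT as the 5′ arm of the stem, and the other 46 genes with a hairpin, of the types H1, H2A, H2B and H3, had GGCTCT. The loop varied within types, with TTTC in 41 genes, TTTA in 9, TTTT in 5, TCTC in 2 and TCTA in 1. In all, 8 different hairpins of 16 bases were found, and the commonest, that of HIST1H1C, stood in 34 genes.

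As a group the clustered genes were low. Their median mean log2 CPM was -1.41, against -0.97 over all genes listed, and 36 of 62 were below the median gene. Of the members, 16 (25.8%) reached a mean log2 CPM of 0, which is a CPM of 1, whereas 43.8% of all genes did. These values are not divided by length, and the part of gene length in this difference was not tested. The lowest 12 members lay within 1 of the lowest value listed, -3.76. There the small count added before the log can outweigh the reads, and differences among these members cannot be read. At or below -2.8 lay 19.4% of the members and 31.6% of all genes, so members were rarer there than genes in general. The 62 genes together summed to 103.5 CPM.

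**Figure D1:**
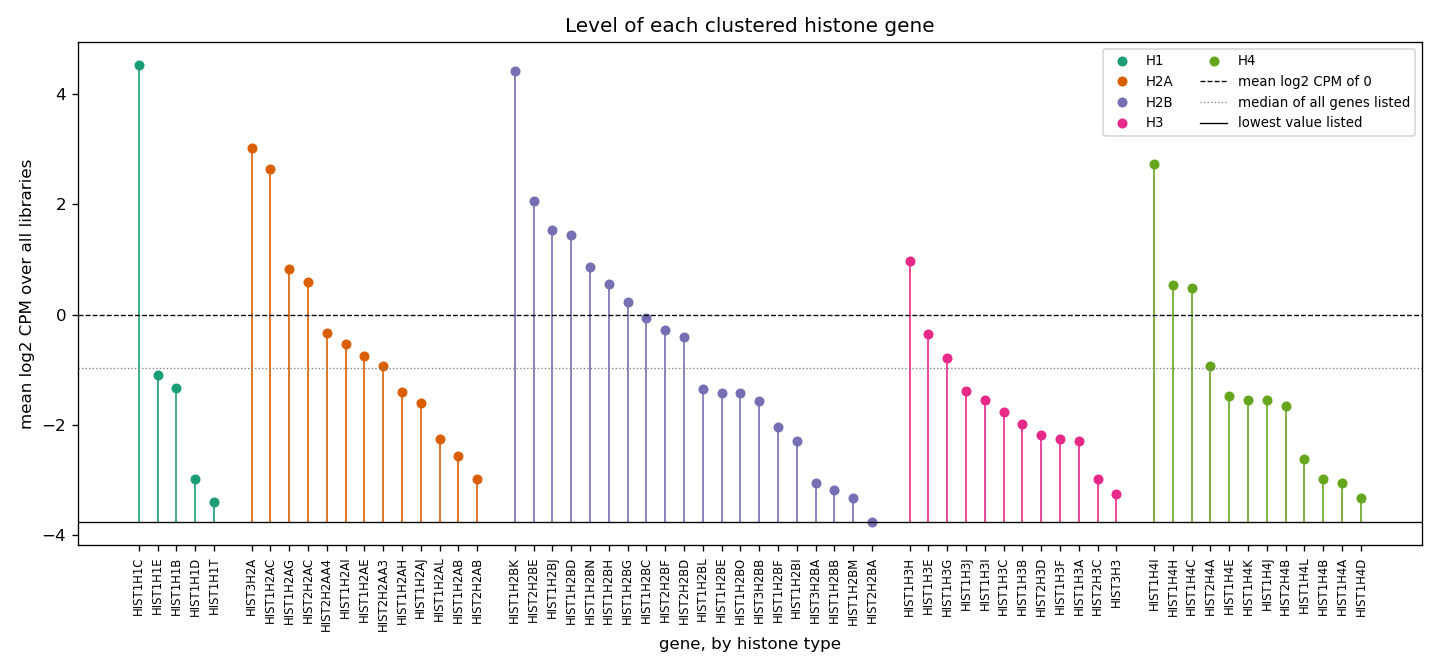
The mean log2 CPM over all 6 libraries (vertical axis) of each of the 62 genes (horizontal axis), coloured by histone type and ordered by level within a type; lines mark 0, the median of all genes listed (-0.97) and the lowest value listed (-3.76). HIST1H1C and HIST1H2BK stand above 4, and 46 genes lie below 0.

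**Figure D2:**
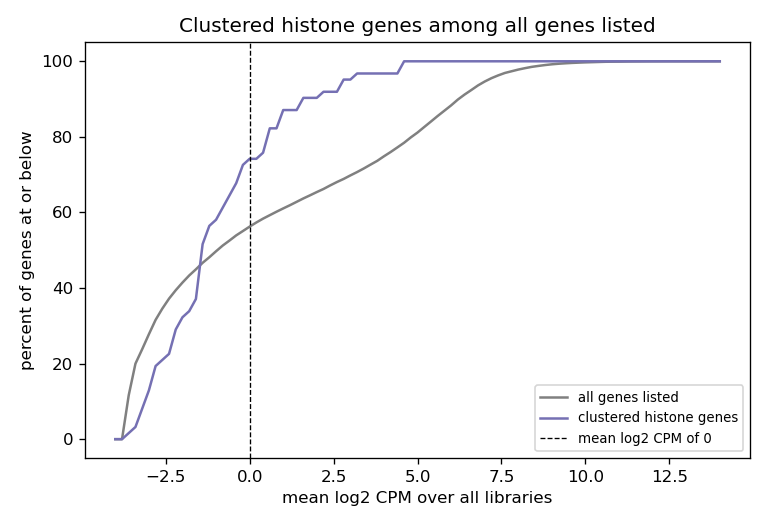
The percent of genes (vertical axis) with a mean log2 CPM at or below the value on the horizontal axis, for all 31999 genes listed and for the 62 clustered histone genes. The curve of the histone genes lies above that of all genes at a log2 CPM of 0, where 25.8% of the histone genes and 43.8% of all genes remain at or above it, and lies below it at the lowest levels.

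Most of the summed level came from few genes. HIST1H1C, which encodes the linker histone H1.2, had a mean log2 CPM of 4.52 (23.0 CPM), higher than 77.9% of all genes. HIST1H2BK, an H2B gene, followed at 4.42 (21.4 CPM). These 2 genes held 42.9% of the summed CPM of the 62, and the 6 highest held 67.3%. By cluster, the 46 HIST1 genes on chromosome 6 held 81.9%, the 12 HIST2 genes 9.63% and the 4 HIST3 genes 8.42%, the last mainly through HIST3H2A.

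H2B genes held the largest share of the summed CPM, 39.2%, followed by H1 with 23.3%, H2A with 20.8%, H4 with 11.5% and H3 with 5.28%. The median gene was highest for H2A (-0.75) and H2B (-0.87) and lower for H1 (-1.32), H4 (-1.55) and H3 (-1.88). The H2B median includes the 3 members that RefSeq calls pseudogenes. Over the 17 coding H2B genes it was -0.28, above that of H2A. The core histones are built into nucleosomes in equal numbers, and the sums of the 4 core types, with no division by length, were 21.5 CPM for H2A, 40.5 for H2B, 5.46 for H3 and 11.9 for H4. With each gene divided by the length of its longest annotated transcript, the shares were 42.0% for H2B, 21.5% for H1, 16.7% for H4, 15.1% for H2A and 4.78% for H3, so that H4 and H2A changed places. These lengths are those of GENCODE. The RefSeq genes of some members, among them HIST3H2A, HIST1H2AC, HIST1H2BN and HIST1H4H, are shorter, so this order depends on the annotation.

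**Figure D3:**
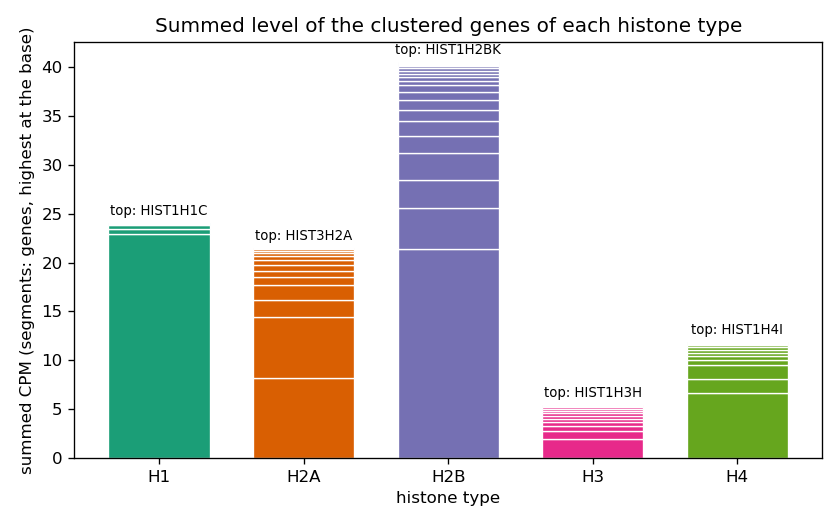
Summed CPM (vertical axis, from 0) of the clustered genes of each histone type (horizontal axis), from the authors' means over all 6 libraries; each segment is 1 gene, the highest at the base. H1 and H2B owe 23.0 and 21.4 CPM to HIST1H1C and HIST1H2BK, and the H3 bar ends at 5.46.

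Among the linker histones HIST1H1C stood alone. The other 4 H1 genes were all below 0, at -1.09 for HIST1H1E, -1.32 for HIST1H1B, -2.99 for HIST1H1D and -3.40 for HIST1H1T. HIST1H1T encodes the H1 variant of the testis, and it and HIST1H1D lay within 1 of the lowest value listed. Divided by the length of the longest annotated transcript, HIST1H1C had 31.4 CPM per kilobase and HIST1H1T 0.131.

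Among the H2A genes, 4 of 13 reached 0. HIST3H2A was highest at 3.03 (8.15 CPM), followed by HIST1H2AC at 2.65 (6.26 CPM), HIST1H2AG at 0.83 and HIST2H2AC at 0.59. Per kilobase of the longest GENCODE transcript the same genes led, from 5.05 CPM for HIST3H2A to 3.05 for HIST2H2AC. The RefSeq genes of HIST3H2A and HIST1H2AC are shorter than these transcripts. HIST2H2AB, at -2.99, lay within 1 of the lowest value listed.

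Among the H2B genes HIST1H2BK stood far above the rest. It had 43.2 CPM per kilobase of its longest GENCODE transcript, and the next, HIST1H2BD, HIST1H2BH and HIST1H2BJ, had 3.45, 3.17 and 3.04. The RefSeq gene of HIST1H2BK runs 8073 bases past the hairpin, introns included, whereas its GENCODE transcript of 495 bases ends near it, and the authors counted on a refSeq annotation, so its value per kilobase rests on a length that may not be that of the model counted. On the log2 CPM scale HIST1H2BD, HIST1H2BH and HIST1H2BJ stood at 1.45, 0.55 and 1.53. HIST2H2BE at 2.06 and HIST1H2BN at 0.86 also reached 0 but had longer GENCODE transcripts, with 1.88 and 0.438 CPM per kilobase. The RefSeq gene of HIST1H2BN ends near the hairpin and is far shorter than its GENCODE transcript of 4137 bases. Its value per kilobase may therefore be too low. HIST2H2BA stood at -3.76, the lowest value listed, and it is one of the 3 members that RefSeq calls pseudogenes. The other 2 are HIST2H2BD and HIST3H2BA.

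Among the H3 genes only HIST1H3H reached 0, at 0.97 (1.96 CPM), and HIST3H3 at -3.25 was close to the lowest value listed. Among the H4 genes 3 of 12 did so. HIST1H4I was at 2.74 (6.67 CPM, 16.8 CPM per kilobase), HIST1H4H at 0.53 and HIST1H4C at 0.49, whereas HIST1H4D at -3.32 was close to the lowest value listed. HIST1H4I (H4C9) lies inside the RefSeq span of HIST1H2BK (H2BC12) on the opposite strand. HIST1H4C and HIST1H1T lie inside the GENCODE span of HIST1H2BC (H2BC4) but outside its RefSeq span. The library kit kept strand, but whether the reads were counted by strand is not given in the sources used here. HIST1H1T is on the same strand as HIST1H2BC, so on the GENCODE model counting by strand would not separate them. The levels of HIST1H4I and HIST1H2BK may therefore hold reads of each other. For HIST1H4C and HIST1H1T this holds only if the model counted was as long as that of GENCODE. In all, 28 members overlapped another gene of GENCODE or RefSeq on any strand. Many of these, such as HIST1H1E and HIST1H4E, overlapped only genes known by an Ensembl identifier, which the refSeq annotation counted on may not hold.

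The poly(A) signal AATAAA was next searched downstream of each hairpin. In 4 genes it began 12 or 13 bases after the hairpin. These are shown from the 3′ arm of the hairpin to the signal, in capitals, because in no other member did it stand within 20 bases (build GRCh38, strand of the gene).
HIST1H1C (chr6:26055726-26055749, minus strand): agagccaccactgatctcAATAAA
HIST1H2BD (chr6:26158597-26158620, plus strand): agagccacgcatgttttcAATAAA
HIST2H2AA3 (chr1:149842204-149842228, minus strand): agagccacccacgttttcaAATAAA
HIST2H2AA4 (chr1:149851584-149851608, plus strand): agagccacccacgttttcaAATAAA

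The levels of these 4 genes were spread widely. HIST1H1C was the highest of all members at 4.52, HIST1H2BD was at 1.45, and HIST2H2AA4 and HIST2H2AA3 were at -0.34 and -0.94. The variant ATTAAA, which stood 13 bases after the hairpin of HIST1H2AB (-2.57), was not counted here. AATAAA within 500 bases was found in 11 members, with a median log2 CPM of -0.94 against -1.42 in the 47 others with a hairpin. Over the 58 genes, which share the same libraries, the distance to the signal and the level had a Spearman rho of -0.02 and a Pearson r of -0.22 (log10 distance).

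The annotated ends of the genes differed too. In 16 of the 58 genes, GENCODE or RefSeq places the end of the gene over 100 bases past the hairpin, counted on the genome with introns included. For HIST1H2AC, HIST1H2BE, HIST1H2BJ, HIST1H2BN, HIST1H3H, HIST1H4H, HIST2H4A, HIST3H2A and HIST3H2BB only GENCODE does so. Their RefSeq genes end near the hairpin. Of these 16, 9 reached a log2 CPM of 0, with a median of 0.70, and they held 53.1% of the summed CPM. In the other 42 the model ended at the hairpin, 6 reached 0, the median was -1.57 and the share was 44.3%. HIST1H2BK, HIST3H2A, HIST1H2AC, HIST2H2BE and HIST1H2BJ were among the first, and HIST1H1C and HIST1H4I among the second.

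A longer model can collect more reads, and the part of length in this gap was not tested. The authors counted on a refSeq annotation, so the models that are long only in GENCODE may not be those counted. Per kilobase of the longest GENCODE transcript the medians were 0.748 CPM for the 16 genes and 0.60 CPM for the 42, and per kilobase of coding sequence 4.70 and 0.713. Over the 58 genes, which share libraries and differ in model length, the level and the annotated bases past the hairpin (log10) had a Spearman rho of 0.45 and a Pearson r of 0.53. How many of the reads counted by the authors lay past the hairpin was not analysed here.

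**Figure D4:**
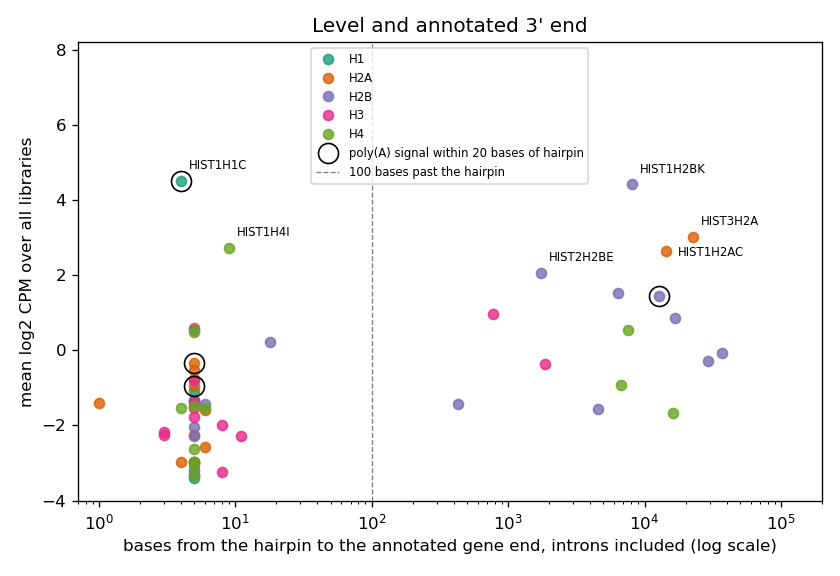
Mean log2 CPM over all 6 libraries (vertical axis) against the bases from the hairpin to the annotated end of the gene, introns included (horizontal axis, log scale), for the 58 genes with a hairpin, coloured by histone type. The end is the farther of those of GENCODE and RefSeq. Rings mark the 4 genes with the poly(A) signal AATAAA within 20 bases of the hairpin (ATTAAA not counted), and the dashed line marks 100 bases. Of the 16 genes right of the line 9 lie above 0, and of the 42 left of it 6 do.

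Some copies within a type are alike enough that a read can fit more than 1 of them. The 59 coding members have 56 different coding sequences and encode 31 different proteins. All 12 H4 genes encode 1 protein, from 10 coding sequences. The 12 H3 genes encode 3 proteins, and 9 of them share 1. The 17 coding H2B genes encode 13 proteins and the 13 H2A genes encode 9, whereas the 5 H1 genes each encode their own. Identity of coding sequence between H4 genes ran from 79.0% to 100%, with a median of 84.1%, so most H4 copies differ at many bases in spite of the shared protein.

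For 9 members, at least 50% of all 100-base windows of the coding sequence also stood in that of another histone gene of the clusters, and for 44 none did. Sequence outside the coding part was not compared. The 9 were all below 0, with a median of -1.54 and 3.85% of the summed CPM. Reads that fit several genes are often dropped in counting, and the values of these 9 are uncertain for that reason. Among the sets with an identical coding sequence, HIST1H4J and HIST1H4K stood at -1.55 and -1.54. HIST2H4A and HIST2H4B were at -0.93 and -1.66, and HIST2H2AA4 and HIST2H2AA3 at -0.34 and -0.94. HIST2H3C was at -2.98, and its identical copy HIST2H3A had no row under that name. The highest genes, HIST1H1C, HIST1H2BK, HIST3H2A, HIST1H4I and HIST1H2AC, shared no window of 100 bases of coding sequence. The next, HIST2H2BE, shared 19.7% of such windows. With windows of 50 bases the share was 22.8% for HIST1H2BK, 2.69% for HIST1H4I and 2.05% for HIST1H2AC, and none for HIST1H1C and HIST3H2A.

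Several H2A and H2B genes stand head to head, with their starts apart by the length of a short shared promoter. Such pairs were looked for after the levels had been seen. In 8 pairs the starts lay 230 to 248 bases apart, and the levels within a pair, given as CPM per kilobase of coding sequence, were unequal. HIST1H2BK had 56.2 and its partner HIST1H2AH 0.979, a ratio of 57.4. In the opposite direction, HIST3H2A had 20.7 and HIST3H2BB 0.883, and HIST1H2AC had 15.9 and HIST1H2BC 2.52. The smallest gap was in the pair of HIST1H2AG (4.52) and HIST1H2BJ (7.59).

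The H2B gene was the higher in 4 of the 8 pairs and the H2A gene in the other 4. The gap ran from 0.75 to 5.84 on the log2 scale, with a median of 1.60, and was over 2 in 3 pairs. In each of these 3 the higher gene was one whose GENCODE or RefSeq model runs past the hairpin. For HIST1H2AC and HIST3H2A only the GENCODE model does. HIST1H2BC and HIST3H2BB, which were the lower genes of their pairs, also have models that run past it, that of HIST1H2BC in RefSeq too.

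**Figure D5:**
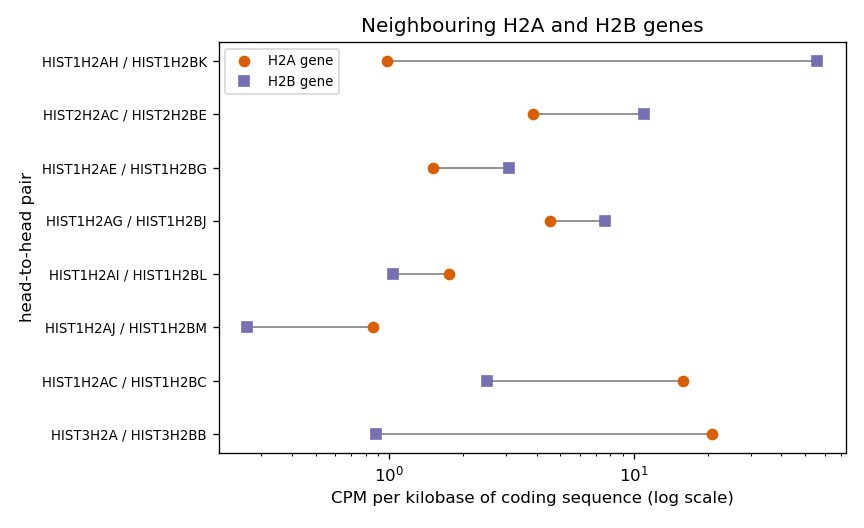
CPM per kilobase of coding sequence (horizontal axis, log scale) of the H2A gene (circle) and the H2B gene (square) of each of 8 head-to-head pairs (vertical axis), from the authors' means over all 6 libraries. The squares lie right of the circles in 4 pairs and left of them in 4, and the widest gap is that of HIST1H2AH (0.979) and HIST1H2BK (56.2).

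Promoters were described over the RefSeq stretch from 250 bases before to 50 bases after the start, which was at hand for 54 of the 62 members (GRCh38.p14). The letters were searched on both strands. CCAAT, the site bound by NF-Y, stood in 85.2% of the 54, against 35.7% of 27305 promoters of the same length, and in all 44 promoters of the H1, H2A, H2B and H3 genes but in only 2 of 10 H4 promoters. TATAAA stood in 66.7%, against 11.95% of all promoters.

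ATTTGCAT, the octamer that OCT1 (POU2F1) binds, stood in 13 of 17 H2B and 8 of 12 H2A promoters, in none of the H1, H3 and H4 promoters, and in 1.80% of all promoters. In 12 H2B promoters it lay on the strand of the gene, 8 times at 45 to 49 bases and 4 times at 108 to 123 bases before the start. The octamers of a pair with a wide and of a pair with a narrow gap in level are shown with the letters searched in capitals, on the strand of the H2B gene.
HIST1H2BK and HIST1H2AH (chr6:27146889-27146912, minus strand): ttcaccttATTTGCATgagaggtc
HIST1H2BJ and HIST1H2AG (chr6:27132827-27132850, minus strand): ttcaccttATTTGCATaagcgatt

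In 6 of the 8 head-to-head pairs the stretch between the starts held an octamer, each time on the strand of the H2B gene and never on that of the H2A gene, so the H2A promoters with an octamer in such pairs share the site with their partner. The pairs of HIST1H2AI and HIST1H2BL and of HIST3H2A and HIST3H2BB had none. The 13 H2B genes with the octamer on either strand had a median log2 CPM of -0.28 and the 4 without it one of -0.24. With only octamers on the strand of the gene counted, 12 of the 17 H2B genes had it. Their median was -0.17, against -1.34 in the others, so this comparison depended on the strand counted, and it was not tested.

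AAACACA, letters of the H1 box, was added to the search after the data were seen. It stood in 5 of 5 H1 promoters, against 5.76% of all promoters, and in each of the 5 once at 105 to 119 bases before the start. Of the other types, 1 of 12 H2A promoters (HIST2H2AC) and 1 of 10 H3 promoters (HIST2H3C) held it, on the strand opposite to the gene. The sites of HIST1H1C, the highest H1 gene, and of HIST1H1T are shown with the letters searched in capitals, on the strand of the gene.
HIST1H1C (chr6:26056575-26056597, minus strand): ggtggaacAAACACAacttggga
HIST1H1T (chr6:26108226-26108248, minus strand): ggtaaaacAAACACAaatactcc

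Most genes that act on histone mRNA were detected. Of a list of 31 genes for transcription, 3′ end processing, decay and histone chaperones, written as 32 names because TUT7 was also entered under its older name ZCCHC6, 29 had a row, with log2 CPM values from 3.49 to 8.41 and a median of 6.12. NASP, a chaperone of H1 and of H3 with H4, was highest at 8.41, followed by UPF1, a helicase of mRNA decay, at 7.88, and SLBP, which binds the hairpin, at 7.63. NPAT, which drives transcription of the clusters, was at 64.1 CPM. Of the processing complex, LSM10 and LSM11, subunits of the U7 particle, were at 5.69 and 4.29. TUT7 was at 4.85, and PAPD5 and ZCCHC11 had no row under these names.

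Histone genes outside the clusters, most of whose mRNAs carry a poly(A) tail, were measured within the same libraries. Of 12 such genes 11 were listed and 10 reached 0, with a median of 8.01. H2AFY (macroH2A1) was at 9.57, H1F0 (H1.0) at 8.95 and H3F3B, one of the genes of H3.3, at 8.58. H2AFJ was the exception at -3.57. Their summed level of 2867 CPM was 27.7 times that of the 62 clustered genes, and 7.19 times when each gene was divided by the length of its longest transcript. For linker histones alone, H1F0 had 225.1 CPM per kilobase and HIST1H1C 31.4.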

How the data were processed

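RNA of 3 shCtrl and 3 shTMIGD2 HEL cultures was sequenced after poly(A) enrichment. Per the study's methods the authors aligned reads to hg38 with STAR 2.6.1b, counted fragments per refSeq gene with HTSeq 0.6.1 and tested with DESeq2 (3.11). The submitters' processing notes also name edgeR. The deposited table holds 1 row per gene, with the authors' mean log2 CPM over all 6 libraries, which was used here, and 4 columns of the authors' own comparison (log2 fold change, F, p-value and adjusted p-value), which were not used. The planned comparison of groups was not possible, since the table has no values per library. The authors kept, for their own tests, genes that averaged 1 or more reads in shCtrl or in shTMIGD2. The prior count behind the deposited log2 CPM, and whether that limit applied to this table, are not given in the sources used here.

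CPM was taken as 2 to the power of the mean log2 CPM, and a gene counted as detected at 0 or more. Members were matched to RefSeq (GRCh38.p14) by older symbols, 62 of 62. Lengths, coding sequences and hairpins came from GENCODE 44 on GRCh38, and promoters from RefSeq. The longest GENCODE transcript gave CPM per kilobase, and its length may not be that of the refSeq model the authors counted. The searches were tested on simulated data. Python 3.11.15, numpy 2.4.6, scipy 1.17.1 and biopython 1.88 were used.

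The members and lists were chosen with earlier results of these data known. Genes were named by a rule: in each histone type the 4 highest and 2 lowest per kilobase among those at 0 or more and the lowest member, all members with an identical coding sequence, and of the comparison lists the 3 highest and any below 0. The other H1 genes, LSM10, LSM11, NPAT, TUT7, genes in overlaps, pairs and hairpin examples, and the markers were named after their values were seen.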

Additional observations from a re-analysis of the deposited data

How the results depend on the processing

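Of 30 alternatives computed, 23 left the value within 1.5-fold of that reported, including every share by histone type, and 7 moved it further. The members counted as detected were 8 at a threshold of 1 and 26 at a threshold of -1, against 16. Of the 10 highest members per kilobase, 6 were among the 10 highest per kilobase of coding sequence and 6 without division by length. With ATTAAA also taken as a poly(A) signal, 21 members had one within 500 bases, against 11. On the strand of the gene only, 12 promoters held the octamer, against 21. The genes outside the clusters summed to 7.19 times the members per kilobase, against 27.7. Leaving out each replicate was not run, since the table has 1 mean over all libraries. No paired analysis was possible because the table has no values per library. Depth per library is unknown, and the 12 members near the lowest value carry no order.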

Other observations

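One pseudogene left out by name, HIST1H3PS1, had a mean log2 CPM of -0.93, while the other 5 left out lay between -3.76 and -2.93. Of the 70 coding clustered histone genes that RefSeq names, 11 had no row under the older name, among them HIST1H1A, HIST1H2BA and HIST4H4.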
